A study of Mus musculus with 9 samples.

Results

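The 9 genes described here encode transcription factors and chromatin-bound cofactors known from hematopoietic stem cells: Hlf, Mecom, Prdm16, Gata2, Mllt3, Erg, Runx1, Lmo2 and Tal1. They were matched by name among the 47480 gene rows of a table of raw counts. All 9 were present, and all 9 were among the 16426 genes that passed a filter on low counts. The study sequenced RNA from bone marrow cells of C57BL/6 mice with no further allele named in the labels. The labels describe LSK as stem cells, and the usual sort under that name takes cells without lineage markers that carry Sca-1 and Kit. The labels describe MP as progenitor cells and leave the abbreviation unexplained. From each population the study took total RNA of the lysate and polysomal RNA, which sediments with several ribosomes in a sucrose gradient, after cycloheximide had been given to hold ribosomes on their messages. The LSK population has 2 total and 2 polysomal libraries, and the MP population has 2 total and 3 polysomal libraries. All 9 libraries shared the cycloheximide treatment (100 ug/ml for 10 min), and no untreated cells were analysed here. An LSK sort holds multipotent progenitors beside stem cells, so its libraries are a mixture.

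Blood stem cells keep their identity through a small network of factors that bind together at enhancers and promoters. Tal1, a basic helix-loop-helix protein, pairs with E proteins such as Tcf3 on E-box motifs. Lmo2 binds no DNA and bridges Tal1 to Ldb1 and to a GATA factor, which in stem cells is Gata2. Runx1 with its partner Cbfb and the ETS factors Erg and Fli1 occupy many of the same elements. Hlf is a PAR bZIP factor, a class that binds a palindromic site, and is used as a marker of stem cells. Mecom, which encodes Evi1, and its paralog Prdm16 are zinc finger proteins of the PRDM family that are needed to maintain stem cells. Mllt3, also known as AF9, reads acetylated or crotonylated histones and links them to elongation complexes and to Dot1l.

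All 9 genes are protein-coding in the GENCODE M21 annotation of GRCm38. Hlf lies at chr11:90336536-90390895 (minus strand), Mecom at chr3:29951296-30548008 (minus) and Prdm16 at chr4:154316125-154636873 (minus). Gata2 lies at chr6:88193891-88207032 (plus), Tal1 at chr4:115056426-115071755 (plus) and Lmo2 at chr2:103957986-103981878 (plus). Runx1 lies at chr16:92601466-92826149 (minus), Erg at chr16:95359169-95586593 (minus) and Mllt3 at chr4:87769925-88033364 (minus). Erg and Runx1 are thus on the same chromosome, as are Prdm16, Tal1 and Mllt3. Exons of 3 members overlap a gene on the opposite strand: Mecom shares 81 bases with Mecomos, Prdm16 shares 109 with B230104I21Rik, and Runx1 shares 106 with Gm26626. No source used here gives the strand setting of the counting, so reads in those stretches cannot be assigned.

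Promoter sequence was available from RefSeq (GRCm38.p6) for 8 of the 9 members. The 250 bases before each annotated start were searched on both strands for the GATA motif AGATAA or its variant TGATAA, the ETS motif CAGGAA or its variant CCGGAA, the RUNX motif TGTGGT or its variant TGCGGT, the E-box CAGCTG or its variant CAGATG, and the PAR bZIP motif TTACGTAA. No motif contains another, but matches may share letters. The stretches of the 4 members that the results below turn on most, free of annotated exons, are shown 5′ to 3′ on the gene's strand, with motif matches in capitals. Hlf and Mecom passed the test between populations, and Runx1 and Tal1 had the closest pair of profiles among the members. The Hlf stretch is chr11:90390918-90391167 (minus), the Mecom stretch chr3:30509823-30510009 (minus), the Runx1 stretch chr16:92826150-92826324 (minus) and the Tal1 stretch chr4:115056176-115056425 (plus).
Hlf: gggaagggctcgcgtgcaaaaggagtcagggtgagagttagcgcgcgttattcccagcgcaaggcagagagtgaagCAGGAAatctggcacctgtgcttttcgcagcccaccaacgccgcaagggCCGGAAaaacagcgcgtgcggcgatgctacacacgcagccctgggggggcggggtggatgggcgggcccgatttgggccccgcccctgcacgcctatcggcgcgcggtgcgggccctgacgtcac
Mecom: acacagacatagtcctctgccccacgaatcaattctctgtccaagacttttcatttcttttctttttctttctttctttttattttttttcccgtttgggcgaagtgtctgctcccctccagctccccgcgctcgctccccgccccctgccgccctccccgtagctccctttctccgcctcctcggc
Runx1: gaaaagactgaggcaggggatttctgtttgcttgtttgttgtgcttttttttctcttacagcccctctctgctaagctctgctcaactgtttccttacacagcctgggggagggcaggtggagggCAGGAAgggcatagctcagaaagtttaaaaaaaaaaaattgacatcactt
Tal1: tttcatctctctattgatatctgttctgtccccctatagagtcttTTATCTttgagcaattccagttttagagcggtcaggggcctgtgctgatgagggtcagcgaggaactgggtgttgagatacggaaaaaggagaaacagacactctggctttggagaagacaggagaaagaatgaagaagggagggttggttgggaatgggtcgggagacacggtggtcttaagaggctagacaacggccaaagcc

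Hlf has CAGGAA at 174 bases and CCGGAA at 125 bases before its start, and Runx1 has CAGGAA at 125 bases before its first start. Tal1 has TTATCT, the reverse complement of AGATAA, at 205 bases before its first start. The Mecom stretch shown has no match, while the exonic part left out of it holds TGATAA at 31 bases and CATCTG, the reverse complement of CAGATG, at 57 bases before the start. The 8 members have 15 windows in all, 1 for each annotated start, and of these 15 a GATA match was found in 3, an ETS match in 5, an E-box match in 3, and a RUNX or PAR bZIP match in 0. Among all 32851 promoter windows of the same length, 16.6% held a GATA match, 35.1% an ETS match, 25.5% an E-box match, 18.6% a RUNX match and 0.113% a PAR bZIP match. These are letters in a window, not measured binding sites.

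Total counts per library ranged from 27342343 to 34807735. Levels are CPM, read counts relative to the library total after TMM scaling (trimmed mean of M-values), and group values are mean ± SD. Changes are log2 fold changes with a standard error (SE) from edgeR's quasi-likelihood fit across all genes, called at an adjusted p under 0.05 (Benjamini-Hochberg over all genes). Whether the libraries stem from separate animals is not stated in the labels, so p-values measure how these libraries vary, and that variation may be technical. The sort gene Ly6a, which encodes Sca-1, was at 63.8 ± 19.3 CPM in LSK total RNA (SD, n = 2) and at 0.775 ± 0.270 CPM in MP total RNA (n = 2). Kit overlapped between the populations. Some libraries carried transcripts of other blood cells. The summed level of 12 maturing neutrophil markers was 15445 CPM in MP total 1 and 20786 CPM in MP polysomal 1 and at most 2807 CPM in the other 7. The sum of 12 B and plasma cell markers was 4799 CPM in LSK total 2 and 3378 CPM in LSK polysomal 2, and 157 to 906 CPM elsewhere. Results that rest on these libraries are therefore also given without both MP libraries numbered 1 or without both LSK libraries numbered 2.

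**Figure D1:**
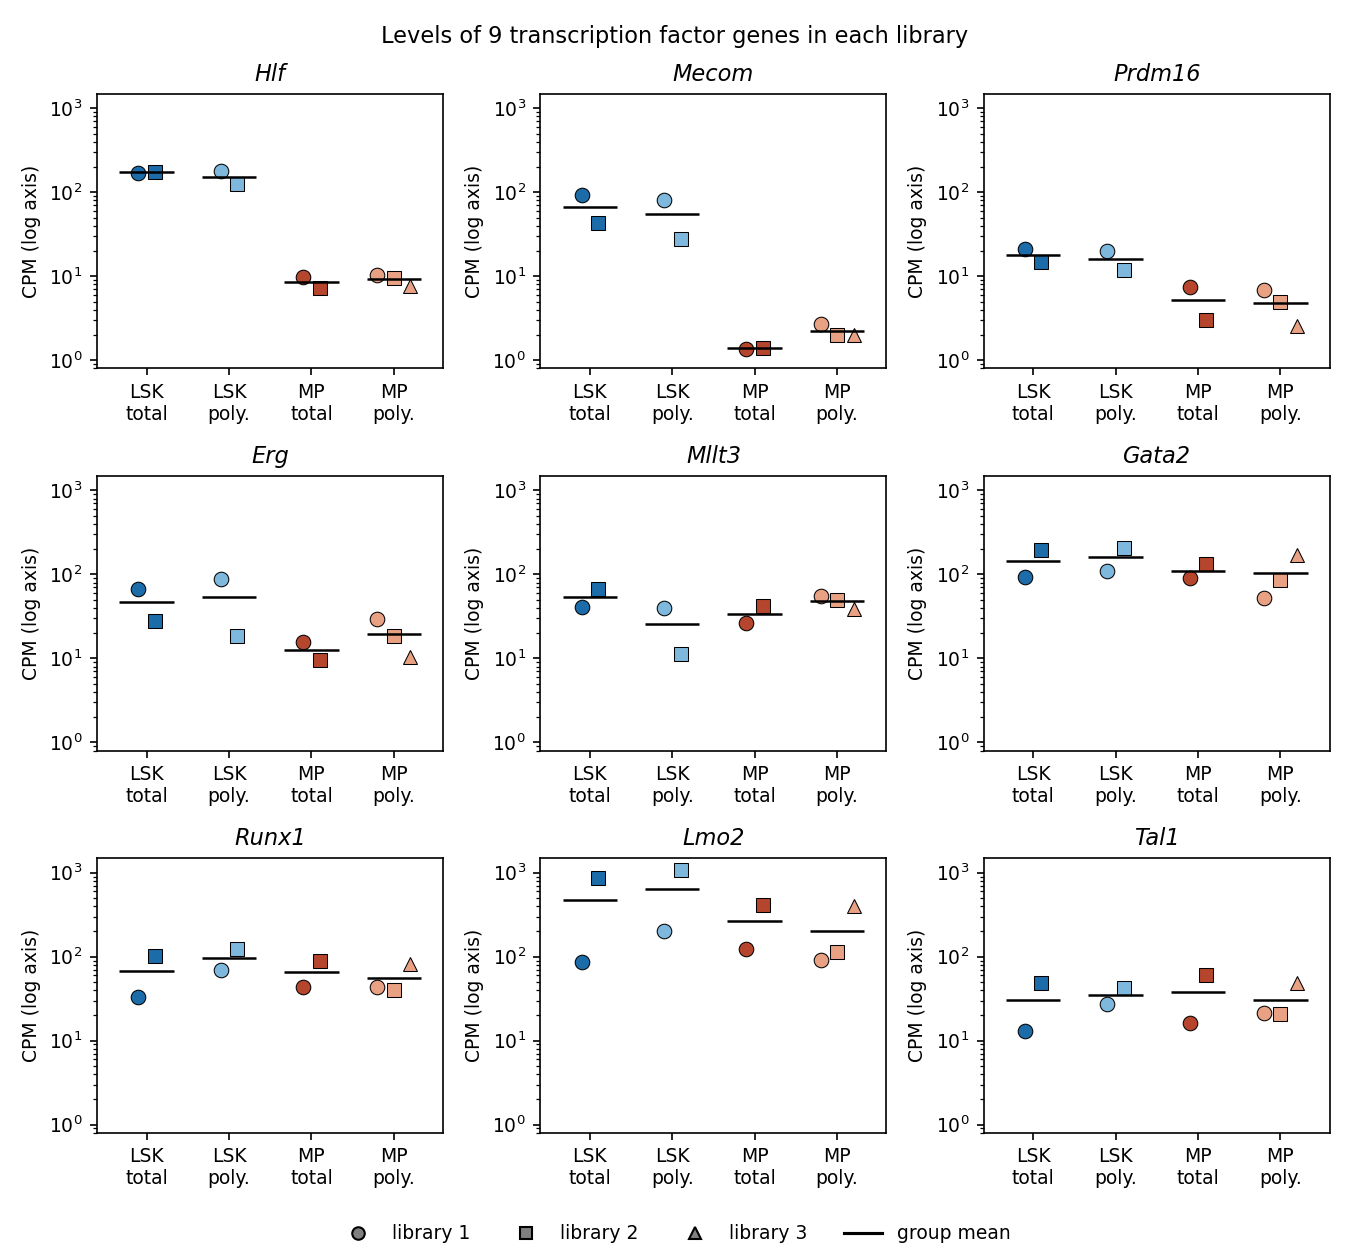
Levels of the 9 members in each library, in CPM on a log axis shared by all panels. Each point is a library, its shape gives the library number, and the horizontal bars are group means. Hlf and Mecom lie far apart between LSK and MP in every library, while the libraries of Gata2, Mllt3, Runx1, Lmo2 and Tal1 overlap between populations.

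The first comparison asked which of these genes differ between the stem cell and progenitor populations in total RNA. Hlf and Mecom were lower in MP, and the other 7 members did not pass. Called lower were thus 2 of 9 members, against 0.816% of all genes tested (134 of 16426), and 0 members were called higher, against 0.274%. At an unadjusted p under 0.05 there were 3 members, Prdm16 being the third, against 17.1% of all genes in either direction. The libraries of LSK and MP did not overlap for 4 members, all lower in MP, against 28.5% of all genes that were lower without overlap. In either direction the shares without overlap were 44.4% of members and 51.3% of all genes. The members' median log2 change was −0.81, beside −0.0062 over all genes tested.

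Hlf had the tightest values. It stood at 171 and 176 CPM in the LSK total libraries, 179 and 127 CPM in the LSK polysomal libraries, 9.69 and 7.27 CPM in the MP total libraries, and 10.5, 9.58 and 7.59 CPM in the MP polysomal libraries. Every LSK library was thus above every MP library, with no intermediate value. In total RNA the level fell from 173.6 ± 3.52 CPM in LSK (SD, n = 2) to 8.48 ± 1.71 CPM in MP (n = 2), a 20.5-fold lower level (log2 change −4.35, SE 0.543, edgeR adjusted p = 0.0326). Its biological coefficient of variation, the fitted spread between libraries of a group, was 0.414, and 3.37% of the tested genes had a smaller one. In bulk RNA, fewer cells of a type and less RNA per cell cannot be told apart, so a lower level here may be either.

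Mecom varied more within LSK and was low in MP. It stood at 92.4 and 42.6 CPM in the LSK total libraries and 82.0 and 27.8 CPM in the LSK polysomal libraries. In MP it stood at 1.37 and 1.40 CPM in total RNA and 2.66, 2.02 and 2.01 CPM in polysomal RNA, which are 41 to 78 reads per library. The lowest LSK library, at 27.8 CPM, was thus still well above the highest MP library, at 2.66 CPM. The total RNA means were 67.5 ± 35.3 CPM in LSK (SD, n = 2) and 1.38 ± 0.0214 CPM in MP (n = 2), 48.8-fold lower in MP (log2 change −5.61, SE 0.80, edgeR adjusted p = 0.0326).

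Prdm16, the paralog of Mecom, had the lowest or next to lowest level per kilobase of exon of the 9 members in every library. It stood at 21.2 and 14.7 CPM in LSK total RNA, 20.0 and 11.8 CPM in LSK polysomal RNA, 7.39 and 3.05 CPM in MP total RNA, and 6.80, 4.89 and 2.58 CPM in MP polysomal RNA. All MP libraries were below all LSK libraries. The log2 change was −1.78 (SE 0.709) in total RNA, with an unadjusted p of 0.032 that did not pass over all genes (edgeR adjusted p = 0.238). Its 95% interval ran from −3.37 to −0.19, which lies above that of Mecom in total RNA (−7.40 to −3.82).

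Erg, an ETS factor of stem cells and endothelium, stood at 66.5 and 28.3 CPM in LSK total RNA and 15.7 and 9.48 CPM in MP total RNA. These libraries did not overlap, but the 2 LSK values differed by 2.35-fold, and the log2 change of −1.91 (SE 0.861) did not pass (edgeR adjusted p = 0.299). In polysomal RNA Erg stood at 89.4 and 18.3 CPM in LSK and 29.3, 18.4 and 10.4 CPM in MP. There the lower LSK library fell within the MP range. Endothelial markers, fixed as a list of 12 because Erg is also an endothelial gene, summed to 270 to 813 CPM in the LSK libraries and 203 to 230 CPM in the MP libraries. The defining endothelial gene Cdh5 was at 0 in 5 libraries and at most 0.150 CPM in the others, and Sox17 was at 0 in 8 libraries. Other genes of the list were present: in total RNA Emcn averaged 20.9 CPM for LSK against 0.524 CPM for MP, and over all libraries Plvap reached 20.9 CPM and Tie1 148.5 CPM. The part of these transcripts in the Erg levels was not tested. Blood stem cells express several genes of this list, such as Tek and Egfl7.

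The factors of the Tal1 complex and Runx1 were present in both populations. Gata2 stood at 93.7 and 197 CPM in LSK total RNA, 111 and 208 CPM in LSK polysomal RNA, 91.3 and 131 CPM in MP total RNA, and 52.3, 86.9 and 171 CPM in MP polysomal RNA. The populations overlapped, and the log2 change between them was −0.39 (95% interval −1.88 to 1.11) in total and −0.62 (−1.97 to 0.73) in polysomal RNA. Runx1 stood at 33.1 and 103 CPM in LSK total RNA and 43.3 and 89.4 CPM in MP total RNA, with a log2 change of −0.034 (−1.60 to 1.53). Its polysomal values were 69.2 and 122 CPM in LSK and 43.7, 40.0 and 82.8 CPM in MP, with a log2 change of −0.79 (−2.20 to 0.63). Both genes thus had intervals that admit a change of 2-fold or more in at least 1 direction, and neither direction was resolved.

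Tal1 was the only member with a positive point estimate in total RNA (log2 change 0.31, 95% interval −1.57 to 2.19). It stood at 13.1 and 48.3 CPM in LSK total RNA, 16.2 and 60.0 CPM in MP total RNA, 27.6 and 42.3 CPM in LSK polysomal RNA, and 21.6, 20.8 and 48.8 CPM in MP polysomal RNA. In both populations the 2 total RNA libraries differed more from each other than the population means did. Without TMM scaling, by library totals alone, which moves the median of all genes by −0.35, the estimate was −0.065. It was −0.33 without LSK total 1 and −0.92 without MP total 2, so its sign rests on the scaling and on single libraries.

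Lmo2 had the highest level per kilobase of exon of the 9 members in every library, between 40.2 and 492 CPM per kilobase. It also had the widest spread. It stood at 87.2 and 854 CPM in LSK total RNA and 203 and 1066 CPM in LSK polysomal RNA. In MP it stood at 124 and 411 CPM in total RNA and 91.8, 112 and 398 CPM in polysomal RNA. The LSK total libraries thus differed by 9.80-fold, and the LSK library with the lower level was below all MP libraries. Its biological coefficient of variation was 0.777, larger than that of 85.1% of the tested genes. The log2 change of −0.81 (SE 1.17) in total RNA and of −1.66 (SE 1.05) in polysomal RNA did not pass (edgeR adjusted p = 0.785 and 0.460). Without both LSK libraries numbered 2 the total RNA estimate was 1.62, the opposite sign.

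Mllt3, the elongation cofactor, stood at 41.5 and 66.8 CPM in LSK total RNA, 40.0 and 11.4 CPM in LSK polysomal RNA, 26.1 and 41.9 CPM in MP total RNA, and 55.3, 49.6 and 39.0 CPM in MP polysomal RNA. It was the only member with a negative estimate in total RNA (−0.67, SE 0.668) and a positive one in polysomal RNA (0.90, SE 0.624). Neither passed (edgeR adjusted p = 0.674 and 0.510). LSK polysomal 2 held the lowest of its 9 values.

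The same comparison in polysomal RNA asked which of these messages differ between the populations in the sequenced polysomal fraction. Hlf and Mecom were again the members called, both lower in MP, 2 of 9 against 2.83% of all genes tested (465 of 16426), and 0 members were called higher, against 0.524%. Hlf fell from 153 ± 37.3 CPM (SD, n = 2) to 9.21 ± 1.47 CPM (n = 3), 16.6-fold lower in MP (log2 change −4.05, SE 0.454, edgeR adjusted p = 0.00696). Mecom fell from 54.9 ± 38.3 CPM (n = 2) to 2.23 ± 0.377 CPM (n = 3), 24.6-fold lower (log2 change −4.62, SE 0.643, edgeR adjusted p = 0.0112). Prdm16 had a log2 change of −1.74 (SE 0.623, adjusted p = 0.173) and Erg one of −1.47 (SE 0.75, adjusted p = 0.351). The libraries did not overlap for 3 members (Hlf, Mecom and Prdm16), against 17.4% of all genes that were lower in MP without overlap. In either direction the shares without overlap were 33.3% of members and 32.4% of all genes. At an unadjusted p under 0.05 there were again 3 members, against 17.8% of all genes. The members' median log2 change was −1.47, beside −0.026 over all genes.

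**Figure D2:**
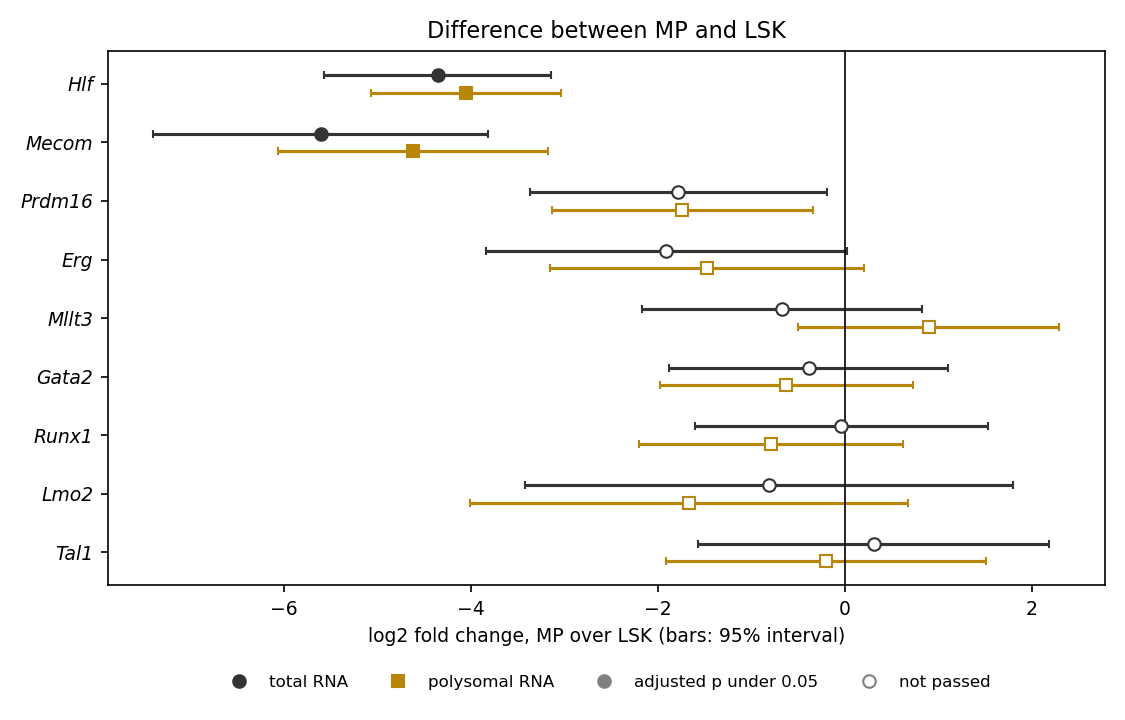
Log2 fold change of each member, MP over LSK, in total RNA (circles) and polysomal RNA (squares), with bars for the 95% interval. Filled symbols passed at an adjusted p under 0.05. The intervals of Hlf and Mecom end below −3, those of Prdm16 end just below 0, and those of the other 6 members include 0.

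The calls for Hlf and Mecom depended on few libraries, as did the number of genes called over the whole table. The size of the Mecom change also depended on few libraries. The direction of both genes did not turn in the 18 alternatives. In total RNA both were called with all 9 libraries. When the fit held only the 4 total RNA libraries, 0 members and 0 of all genes were called. There the estimates were −4.42 for Hlf and −5.63 for Mecom (edgeR adjusted p = 0.133 for both). Without both MP libraries numbered 1, which carry the neutrophil transcripts, the estimates were −4.55 and −5.53 in total RNA (adjusted p = 0.422 for both) and −4.15 and −4.78 in polysomal RNA (adjusted p = 0.0804 and 0.0891). Without both LSK libraries numbered 2 both were called in both fractions, at −4.34 and −6.06 in total RNA and −4.28 and −5.20 in polysomal RNA. Leaving out single libraries ended the total RNA calls in 7 of 9 cases: LSK total 1 or 2, MP total 1 or 2, or MP polysomal 1, 2 or 3. It ended both polysomal calls without MP polysomal 1 or 2, and that of Mecom without MP polysomal 3. Over all genes tested, 0 passed in total RNA without MP polysomal 1, 2 or 3. In polysomal RNA 0 genes passed without MP polysomal 1 or 2, and 25 without MP polysomal 3. The other cases that ended the total RNA calls left 1 library in a group. Over all 18 alternatives the log2 change of Hlf lay between −4.71 and −4.01 in total RNA and between −4.28 and −3.67 in polysomal RNA. That of Mecom ranged from −6.06 to −4.93 in total RNA, with the smallest size without LSK total 1. In polysomal RNA it ranged from −5.20 to −3.53, being −3.53 without LSK polysomal 1 and −5.19 without LSK polysomal 2, beside −4.62 with all libraries.

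To see how far other stem cell factors behaved like the members, 38 further transcription factors of stem cells were taken as a list, of which 35 were tested. The list was chosen with earlier results of these data known, so its counts and shares only describe it and are no separate evidence. In total RNA 1 of 35 was lower in MP, against 0.816% of all genes, and 0 were higher. The median log2 change was −2.17, and 30 of 35 estimates were negative, against 50.2% of all genes. In polysomal RNA 6 of 35 were lower, against 2.83%, and 0 higher, with a median of −1.75 and 29 of 35 negative, against 51% of all genes. Of these 6, Klf12 and Nkx2-3 passed the filter on low counts through LSK alone. Their direction was thus fixed beforehand, and their calls are no support. Without both MP libraries numbered 1, 0 of the 35 were called in polysomal RNA, as were 0 of all genes. That fit leaves 1 MP total library, and leaving out both LSK libraries numbered 2 leaves 1 library in each LSK group. No counts of the list are given there. With only the groups compared in the fit, 0 of 35 were called in total RNA, as were 0 of all genes. In polysomal RNA 3 of 35 were called, beside 304 of 16426 genes. The counts of the list also changed when single libraries were left out, where some fits keep 1 library in a group. By DESeq2 12 were lower in total RNA, against 6.66% of all genes fitted. By the same tool 10 were lower and 1 higher in polysomal RNA, against 6.67% and 3.22%.

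Gata3, a GATA factor of stem cells and T cells, averaged 18.5 ± 1.5 CPM in LSK total RNA (SD, n = 2) and 0.854 ± 0.124 CPM in MP total RNA (n = 2), a log2 change of −4.43 (SE 0.688, edgeR adjusted p = 0.0326). It also fell in polysomal RNA (log2 change −3.48, SE 0.562, adjusted p = 0.0162). Meis1, a homeobox partner of Hox proteins, was at 330 ± 230 CPM in LSK and 60.0 ± 13.5 CPM in MP polysomal RNA, and fell by 2.46 on the log2 scale (adjusted p = 0.0436). Hoxa10 fell by 4.42 and the Wnt pathway factor gene Tcf7l2 by 2.46 in polysomal RNA. The other 2 of the 6 passed the filter on low counts through LSK alone, so no fold and no p-value is given. Klf12 had 69 and 32 reads in the LSK polysomal libraries and 0, 0 and 2 reads in the MP polysomal libraries. Nkx2-3, named after its values were seen, had 53 and 153 reads in LSK and 0, 0 and 4 in MP. Hoxa9, the usual partner of Meis1, had estimates of −1.92 in both fractions that did not pass (adjusted p = 0.191 and 0.124). Myb and Spi1, factors of progenitors as well as stem cells, had estimates of 0.35 and 1.10 in total RNA with overlapping libraries.

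Among 27 paralogs of the members, 20 were tested, and Gata3 was the only one called in each fraction. It was lower in MP, against 0.816% of all genes in total and 2.83% in polysomal RNA. Gata3 is also in the list of 38 factors above, so this is the same call. At an unadjusted p under 0.05 there were 4 and 7 paralogs, against 17.1% and 17.8% of all genes. The erythroid GATA factor gene Gata1 was at 49.97 ± 6.14 CPM in LSK and 229 ± 1.43 CPM in MP total RNA (n = 2 each), and 120 ± 5.30 CPM in LSK and 345 ± 40.4 CPM in MP polysomal RNA. Its log2 changes of 2.19 (SE 0.436, edgeR adjusted p = 0.0503) and 1.53 (SE 0.402, adjusted p = 0.0750) were just short of the threshold, with no overlap between libraries. Beside this, 12 erythroid markers summed to 455 to 846 CPM in the LSK libraries and 4073 to 7129 CPM in the MP libraries, and the share of red cell precursors in the Gata1 and Gata2 levels was not tested. Lyl1, the Tal1 paralog, had estimates of −0.96 and −2.15 (adjusted p = 0.654 and 0.197). Fli1, the Erg paralog, had estimates of −0.51 and 0.28, Runx2 of −1.38 and −1.56, and Runx3 of 0.15 and −0.36, none of which passed. The PAR bZIP relatives of Hlf were Tef, at 22.6 ± 0.534 CPM in LSK and 22.8 ± 9.16 CPM in MP total RNA, and Dbp, at 5.67 ± 5.55 and 3.24 ± 2.03 CPM. Their log2 changes in total RNA were 0.0084 (SE 0.641) and −0.81 (SE 1.33), beside −4.35 for Hlf.

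Among 24 partners and cofactors, 23 were tested and 0 passed in either fraction by edgeR, with 4 and 2 at an unadjusted p under 0.05, against 17.1% and 17.8% of all genes. By DESeq2 1 was higher and 2 were lower in total RNA, against 2.3% and 6.66% of all genes, and 1 was higher and 1 lower in polysomal RNA, against 3.22% and 6.67%. Their medians were 0.28 in total and −0.29 in polysomal RNA. Ldb1, the scaffold that Lmo2 binds, was at 62.5 ± 62.5 CPM in LSK and 67.4 ± 40.3 CPM in MP total RNA (n = 2 each). The Runx1 partner Cbfb averaged 158 ± 174 and 93.1 ± 77.9 CPM, and the E protein gene Tcf3 83.9 ± 99.1 and 253.6 ± 227 CPM. The corepressor gene Cbfa2t3, whose protein joins the Tal1 complex, averaged 88.9 ± 64.0 and 61.2 ± 22.2 CPM, and Lmo4 26.95 ± 9.20 and 54.4 ± 4.82 CPM. For Ldb1, Cbfb and Tcf3 the SD was near or above the mean in LSK, so no direction was resolved.

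Of 16 genes of the elongation and Dot1l complexes that Mllt3 joins, 15 were tested and 0 passed in either fraction by edgeR, with 1 and 5 at an unadjusted p under 0.05, against 17.1% and 17.8% of all genes. By DESeq2 0 passed in total RNA, and in polysomal RNA 1 was higher and 2 were lower, against 3.22% and 6.67% of all genes. The Mllt3 paralog Mllt1, which encodes ENL, was at 30.3 ± 31.2 CPM in LSK and 63.4 ± 59.3 CPM in MP total RNA (n = 2 each), and its estimate of 1.07 (SE 1.30) did not pass (edgeR adjusted p = 0.743).

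Megakaryocyte, mast cell and basophil markers were followed because Gata2, Tal1, Lmo2, Runx1 and Mecom are also known from those lineages. The 12 megakaryocyte markers summed to 696 to 1679 CPM in LSK and 234 to 911 CPM in MP, and Gp6 was at 0 in 7 libraries. Of the 11 tested, 6 were higher and 5 lower in MP by estimate in total RNA, and 4 and 7 in polysomal RNA. The 10 mast cell and basophil markers summed to 141 to 410 CPM in LSK and 293 to 932 CPM in MP, with Tpsb2 and Mcpt4 at 0 in 2 libraries each. Hdc, at up to 588 CPM, and Cpa3, at up to 230 CPM, weigh most in these sums. By estimate 4 of the 10 were higher and 6 lower in MP in total RNA, and 6 and 4 in polysomal RNA. The sums thus do not give the direction of the single markers. None of the members' levels was adjusted for these, and their part in the members' levels was not tested.

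The next comparison set polysomal against total RNA within each population. It asked whether any of these messages was over- or under-represented in the sequenced polysomal fraction. In LSK 0 of 9 members passed by edgeR, against 0% of all genes tested, with 0 members at an unadjusted p under 0.05 against 12.1% of all genes. DESeq2 called 0 members and 433 genes (2.64%). In MP 0 of 9 members passed by edgeR, again against 0%, with 0 at an unadjusted p under 0.05 against 7.57%, and DESeq2 called 0 members and 30 genes (0.183%).

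In LSK the estimates ran from −1.08 for Mllt3 to 0.50 for Runx1. Mllt3 was the only member whose LSK total and polysomal libraries did not overlap. It was lower in polysomal RNA, against 20.6% of all genes that were lower without overlap. In either direction the shares without overlap were 11.1% of members and 36.8% of all genes. The highest polysomal value of Mllt3, 40.0 CPM, was, however, next to its lowest total value of 41.5 CPM. The 95% interval of its change ran from −2.58 to 0.43. Hlf, the member with the smallest error, had a log2 change of −0.18 (95% interval −1.24 to 0.88). In MP the estimates ran from −0.42 for Lmo2 to 0.69 for Mecom. Mecom was the only member without overlap, higher in polysomal RNA, against 16.3% of all genes that were higher without overlap. In either direction the shares were 11.1% of members and 32.6% of all genes. The Mecom interval ran from −0.70 to 2.08. Hlf in MP had a log2 change of 0.12 (−0.86 to 1.09).

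**Figure D3:**
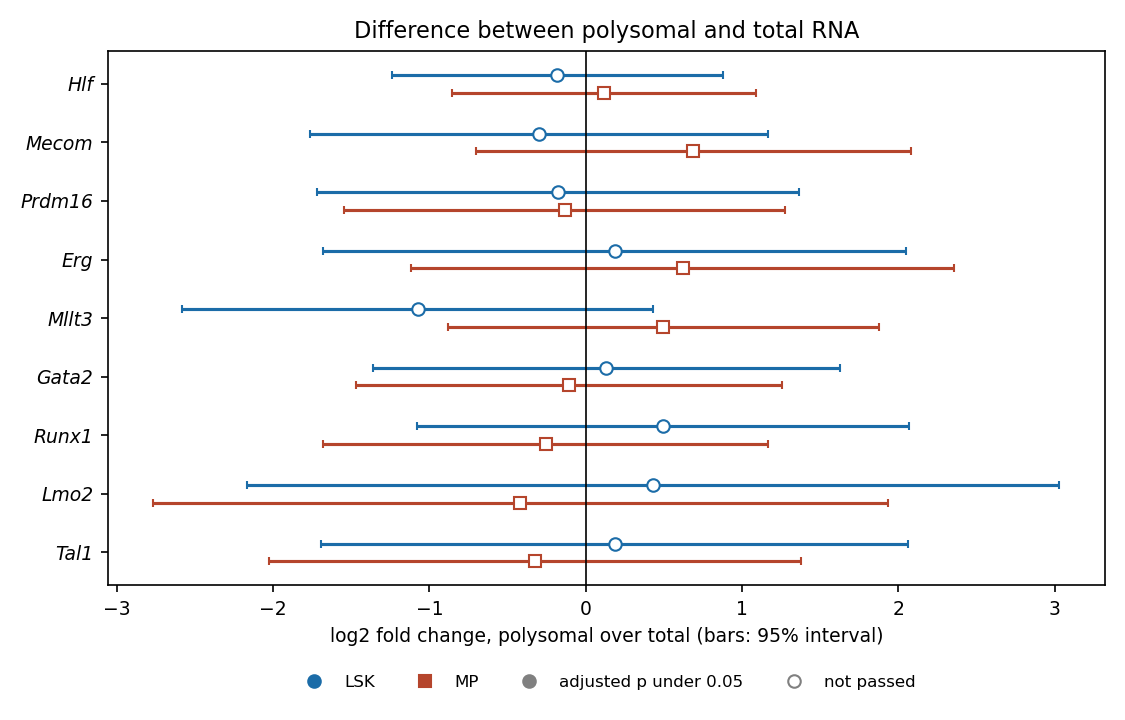
Log2 fold change of each member, polysomal over total RNA, in LSK (circles) and MP (squares), with bars for the 95% interval. All symbols are open because 0 members passed at an adjusted p under 0.05, and all 18 intervals include 0.

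The interaction asked whether the polysomal share of a message differed between MP and LSK. For it 0 of 9 members passed by edgeR, against 0% of all genes tested, with 0 members at an unadjusted p under 0.05 against 5.29%, and DESeq2 called 0 members and 1 gene (0.00609%). Mllt3 had the largest estimate, 1.57 (95% interval −0.47 to 3.62, adjusted p = 0.877), which follows from its opposite signs in LSK and MP. Mecom came next at 0.99 (−1.03 to 3.003), and that of Hlf was 0.30 (−1.14 to 1.74). The Lmo2 interval, −4.35 to 2.66, was the widest, so for Lmo2 not even a change of several-fold was resolved. These estimates share libraries with the comparisons above and are no separate evidence.

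The order of the 4 groups shows the same. For Hlf, Mecom and Prdm16 both LSK groups came before both MP groups, LSK total before LSK polysomal RNA, and the step from LSK to MP was free of overlap. Mecom alone also had a step without overlap between MP polysomal and MP total RNA. For Gata2, Erg, Runx1 and Lmo2 the order by mean was LSK polysomal, LSK total and then the MP groups, but neighbouring groups overlapped at every step. For Tal1 and Mllt3 the populations were interleaved, with overlap at every step.

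Libraries of a group differed in a way that several members shared. Gata2, Runx1, Lmo2 and Tal1 each had their highest value in LSK total 2, LSK polysomal 2, MP total 2 and MP polysomal 3. This held for 15.6% of all tested genes (2566 of 16426), and for 4 of 9 members. Erg and Prdm16 had their highest value in library 1 of every group, as did 17% of all tested genes (2787 of 16426). Between those libraries Lmo2 was higher by 1.73 to 3.29 on the log2 scale, Tal1 by 0.62 to 1.89, Runx1 by 0.82 to 1.63 and Gata2 by 0.52 to 1.71. In the same ratios Erg was between −2.28 and −0.73 and Prdm16 between −1.37 and −0.53. Hlf and Mecom were in neither set.

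**Figure D4:**
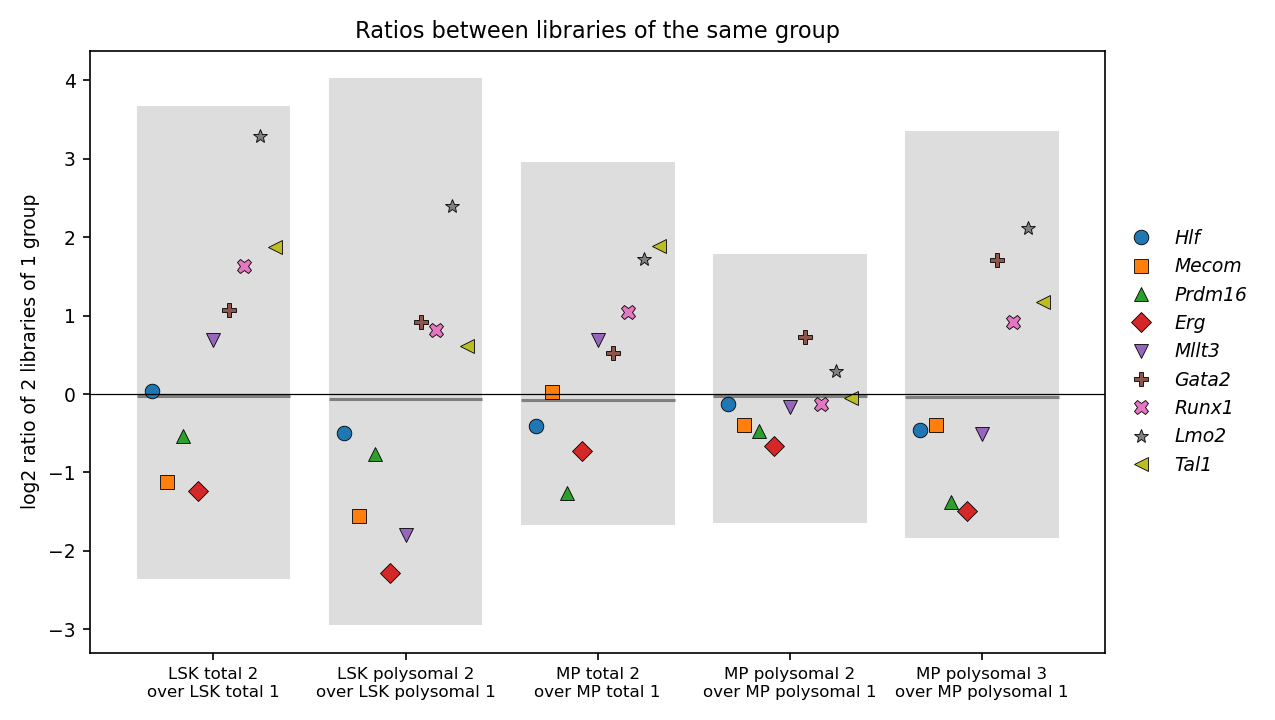
Log2 ratio of the members between libraries of the same group, with a column per pair of libraries. Grey boxes span the central 95% of all tested genes and grey lines their median. Lmo2 and Gata2 lie above 0 and Erg and Prdm16 below 0 in all 5 columns shown, while Tal1 and Runx1 lie above 0 in 4 of them, all but MP polysomal 2 over 1.

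GC content moved with the polysomal ratios over all genes, and less or not with the total RNA ratios. For LSK polysomal 2 over 1, the median log2 ratio went from −1.04 in the 3954 genes with the lowest GC content to 1.19 in the 3954 with the highest, and for MP polysomal 3 over 1 from −0.46 to 0.82. The same medians were −0.14 and 0.27 for LSK total 2 over 1, and −0.028 and −0.016 for MP total 2 over 1. The longest transcript of Gata2 has 58.2% GC, that of Lmo2 53.9%, Tal1 52.8% and Runx1 46.4%, beside 53.3% for Prdm16 and 50.8% for Erg. Once each library's GC trend was removed, the LSK polysomal ratio of Gata2 went from positive to −0.75, while that of Lmo2 was 1.78, of Runx1 1.32, of Tal1 0.18 and of Erg −2.45. With the trend removed, Hlf and Mecom were called in total RNA at −4.01 and −5.31 (edgeR adjusted p = 0.0151 for both) and in polysomal RNA at −4.24 and −4.68 (adjusted p = 0.00397 for both).

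Profiles over the 9 libraries were compared by the root mean square difference of centred log2 CPM, in which 0 means the same profile. Among the members, Runx1 and Tal1 were closest (0.301), followed by Gata2 with Runx1 (0.343), Gata2 with Tal1 (0.511), Prdm16 with Erg (0.517) and Hlf with Mecom (0.553). Among 8795 other genes of at least 10 CPM on average, those nearest to Hlf were F11r (0.342), which encodes a junctional adhesion molecule, Ctsw (0.388) and Chrnb1 (0.422). F11r was at 51.7 ± 6.60 CPM in LSK and 2.87 ± 0.622 CPM in MP total RNA. Nearest to Mecom were Crispld1 (0.346), Tnip3 (0.523) and F11r (0.561). Crispld1 was at 33.6 ± 26.7 CPM in LSK and 0.756 ± 0.0137 CPM in MP total RNA. The median difference from all candidates was 2.32 for Hlf and 2.67 for Mecom. It was smaller for Runx1 (0.989), Tal1 (1.05), Gata2 (0.977), Prdm16 (1.34) and Erg (1.28), so equal differences mean less likeness for those genes.

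Nearest to Prdm16 were Dok2 (0.236), Gsap (0.253) and Myadm (0.256), and nearest to Erg were Clec4e (0.240), Fam134b (0.279) and Muc13 (0.283). Nearest to Gata2 were Gabpb1 (0.272), Scmh1 (0.275) and Cbfa2t3 (0.285), the last being the cofactor gene of the Tal1 complex named above. Nearest to Runx1 were Dtnbp1 (0.176), Spred2 (0.229) and Ulk1 (0.247), among the nearest to Tal1 were Ftl2-ps (0.176) and Pomgnt1 (0.241), and nearest to Lmo2 were Galnt11 (0.328), Samd10 (0.357) and H2afy (0.371). Nearest to Mllt3 were Nampt (0.166), Cd55 (0.246) and Fut8 (0.261).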

How the data were processed

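Per the labels' protocols, RNA amplification was by SMARTer and polysomal RNA came from fraction 7 of 10 of a 10 to 60% sucrose gradient. The authors deposited raw counts per gene symbol. Tools and builds named in the submitters' processing notes are STAR, featureCounts, bcl2fastq, DESeq2, mm10 and GRCm38. Not given in the sources used here were versions, strandedness and annotation. The deposited normalized table was not used.

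The fit used edgeR 4.0.16 with limma 3.58.1 under R 4.3.3: filterByExpr (minimum count 10, minimum total 15), TMM, a mean per group over 9 libraries, 5 two-sided contrasts, Benjamini-Hochberg adjustment over all genes at 0.05. The total counts were similar, so the spread between libraries (median tagwise coefficient of variation 0.558) sets the precision. For groups this small the lowest p of an exact permutation test is 0.33 (2 against 2) or 0.2 (3 against 2), so none is given. Alternatives were other scalings, no filter, DESeq2 1.42.0, only the groups compared, a replicate block, each library left out and 3 chosen after seeing the data. Fits were tested on simulated data.

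The members and lists were chosen with earlier results of these data known. Named were all members, up to 4 called genes per list and comparison, set relatives and partners, and the 3 most alike genes per member, of which 1 is not reported here. Gene positions, lengths and GC content were matched by symbol to GENCODE M21 (15816 of 16426 tested genes).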

Additional observations from a re-analysis of the deposited data

How the results depend on the processing

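Hlf and Mecom kept a negative sign between populations in all 18 alternatives and were called in 9 of them each in total RNA and in 15 and 14 in polysomal RNA. With library totals only, 328 genes passed in total RNA, 13.1% of them higher against 25.1%. The medians of all genes moved by −0.35, −0.11, −0.37, −0.14 and 0.24 in the 5 comparisons. Tal1 went to −0.065 in total RNA, Gata2 to −0.32, Erg to −0.085, Lmo2 to −0.10 and Tal1 to −0.27 for LSK fractions, Hlf to −0.015 for MP fractions and Gata2 to 0.069 for the interaction. Without the filter 1206, 1558, 547, 22 and 4 genes passed in the 5 comparisons, and with DESeq2 1471, 1624, 433, 30 and 1. With only the groups compared 0 genes and 0 members passed in total and 304 genes in polysomal RNA.

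The labels do not say whether libraries with the same number share animals or a sort, and the numbers were not treated as pairs. Correlations of deviations between libraries of the same number ran from 0.253 to 0.62 for those numbered 1 and from −0.375 to 0.592 for those numbered 2. In groups of 2 libraries the deviations are equal and opposite, so values between such groups repeat. MP polysomal 2 correlated at −0.375 with MP total 2. MP polysomal 3 correlated at 0.569 with LSK polysomal 2, 0.581 with LSK total 2 and 0.608 with MP total 2. The numbers, which the replicate block uses, thus did not follow these likenesses in MP. With the replicate block 570 genes passed in total RNA and 1 in the MP fractions, Runx1 went to 0.044 in total RNA, Erg to −0.098 for LSK fractions and Prdm16 to 0.28 for MP fractions, and the block changed no call of a member.

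The last 3 alternatives were chosen after seeing the data. Without both LSK libraries numbered 2, 197 genes passed in polysomal RNA. Gata2 went to 0.25, Runx1 to 1.00 and Lmo2 to 1.62 in total RNA, Tal1 to 0.14 in polysomal RNA, Hlf to 0.072 for LSK fractions and Prdm16 to −0.047 for the interaction. Without both MP libraries numbered 1, 0 genes and 0 members passed between populations in either fraction, Runx1 went to 0.39 in total RNA, Tal1 to 0.010 in polysomal RNA and Prdm16 to 0.26 for MP fractions. With the GC trend removed 343 genes passed in total RNA. Mllt3 went to 0.19 and Runx1 to 0.15 there, and Tal1 to 0.070 in polysomal RNA. For LSK fractions Hlf went to 0.19, Gata2 to −0.044, Lmo2 to −0.054 and Tal1 to −0.11. For MP fractions Hlf went to −0.039, Prdm16 to 0.18 and Gata2 to 0.37, and for the interaction Hlf to −0.23 and Gata2 to 0.41. None of these values passed the test, and the cause of each turn was not tested.

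With each library left out in turn, 0 to 446 genes passed in total and 0 to 516 in polysomal RNA, and 0 to 2 members in each. For total RNA the sign turned for Gata2 −0.81 to 0.25, Runx1 −0.64 to 1.00, Lmo2 −1.91 to 1.62 and Tal1 −0.92 to 1.54. For polysomal RNA the sign turned for Erg −2.20 to 0.17 and Tal1 −0.72 to 0.15. For LSK fractions the sign turned for Hlf −0.58 to 0.062, Mecom −1.42 to 0.39, Prdm16 −0.74 to 0.17, Gata2 −0.38 to 0.77, Erg −1.51 to 0.95, Runx1 −0.080 to 1.54, Lmo2 −1.19 to 2.87 and Tal1 −0.45 to 1.42. For MP fractions the sign turned for Hlf −0.058 to 0.34, Prdm16 −0.62 to 0.64, Gata2 −0.68 to 0.21, Runx1 −0.68 to 0.38, Lmo2 −1.39 to 0.71 and Tal1 −0.98 to 0.93. For the interaction the sign turned for Prdm16 −0.46 to 0.80, Gata2 −0.87 to 0.29, Erg −0.32 to 2.16, Lmo2 −3.28 to 0.79 and Tal1 −1.74 to 0.73. Among the members, read counts are given above for Mecom in MP alone, and the other levels are CPM. Prdm16 was also low in MP, with 81 reads in MP polysomal 3 and 94 in MP total 2. Each group held 2 or 3 libraries.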
